A study of Mus musculus with 6 samples.

Results

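Nuclear receptors are transcription factors that read lipophilic signals and bind DNA through paired zinc fingers. In the liver they set hepatocyte identity and the handling of bile acids, sterols and fatty acids, most of them as heterodimers with a retinoid X receptor. Cryptochromes, the repressors of the circadian clock encoded by Cry1 and Cry2, are reported to bind some of these receptors. The 10 receptor genes described here were taken by symbol: Hnf4a, Nr1h4, Nr1h3, Ppara, Ppard, Nr0b2, Nr5a2, Rxra, Thrb and Esrra. All 10 were among the 15092 genes of the deposited table, and all 10 passed the filter on low values that left 13816 genes for testing.

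Polyadenylated RNA of mouse liver was sequenced in 3 libraries titled wild type (WT) and 3 titled CRY1 KO, a knockout of Cry1, all of strain C57BL/6J. The labels name the cell type as hepatocyte without describing a sort. They give no sex, age, hour of collection or feeding, no account of how the allele was made, and nothing on whether each library came from its own animal. Every p-value is therefore set against the scatter of these libraries alone, which may be technical. All titles share the prefix NC, which the labels leave unexplained. The whole-gene value of Cry1 did not separate the groups, with a WT mean of 6.31 ± 1.32 and a CRY1 KO mean of 6.19 ± 0.88 (CPM, SD, n = 3; edgeR adjusted p = 0.954), so it does not check the labels, and every direction below is that of the libraries labelled CRY1 KO. Levels are in CPM, each count as its share of the TMM-scaled library.

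Library totals ran from 79708703 to 91316332 estimated counts. The 10 hepatocyte markers had sums of 85660 to 90720 CPM in the WT libraries and of 89180 to 98070 CPM in those labelled CRY1 KO. Alb alone stood at 45835 to 54689 CPM in WT and at 53542 to 62825 CPM in CRY1 KO, the larger part of each sum. Of the 10 markers, 0 passed the edgeR test, 0 passed with DESeq2 and 0 had an unadjusted p under 0.05. Their groups did not overlap in 2 as higher and 3 as lower, beside 27.3% of all tested genes. The 12 markers of Kupffer cells, the resident macrophages, summed to 662.7, 414.9 and 258.7 CPM in WT 1, 2 and 3 and to between 238.3 and 241.7 CPM in CRY1 KO. All 12 had negative differences (median log2 -0.84), 0 of 12 passed the edgeR test (6 with DESeq2, 8 at an unadjusted p under 0.05), and none was at 0 in any library. In whole tissue, fewer cells of a type and less RNA per cell cannot be told apart. Red blood cell markers summed to 2970 CPM in WT 1 and to between 580.9 and 1022 CPM in the other libraries. Lymphocyte markers summed to between 9.897 and 15.11 CPM in the WT libraries and from 4.207 to 6.714 CPM in those labelled CRY1 KO, and 1 of 9, Jchain, passed (log2 -2.45, SE 0.33, edgeR adjusted p = 0.0194). Monocyte and neutrophil markers summed to 4.685 to 8.983 CPM against 2.914 to 3.146 CPM, with 0 of 6 past the edgeR test (2 with DESeq2, 2 at an unadjusted p under 0.05). Of 8 endothelial markers the groups did not overlap in 4, all higher, and 0 passed (0 with DESeq2, 3 at an unadjusted p under 0.05). Over all 13816 tested genes, 1.70% passed the edgeR test and 1284 genes passed with DESeq2. An unadjusted edgeR p under 0.05 was reached by 20.7%, and the groups did not overlap in 27.3%. The part of these cell types in the values below was not tested, beyond the libraries left out.

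Promoter sequences of the receptors were taken from RefSeq (build GRCm38.p6, whereas the submitters name GRCm39 for their files), as 250 bases before to 50 bases after each annotated start. All 10 symbols matched, with 15 starts in all, since 5 genes have 2. Those of Hnf4a, the receptor gene that passed the test below, are shown with those of Nr1h4 and Nr0b2, a bile acid sensor and the corepressor gene it is known to induce, neither of which passed the test. Capitals mark every match, on either strand, to the canonical E-box bound by CLOCK and BMAL1 (CACGTG), the nuclear receptor half-site (AGGTCA) or the GC box (GGGCGG).

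Hnf4a, upstream start, plus strand, chr2:163506607-163506906: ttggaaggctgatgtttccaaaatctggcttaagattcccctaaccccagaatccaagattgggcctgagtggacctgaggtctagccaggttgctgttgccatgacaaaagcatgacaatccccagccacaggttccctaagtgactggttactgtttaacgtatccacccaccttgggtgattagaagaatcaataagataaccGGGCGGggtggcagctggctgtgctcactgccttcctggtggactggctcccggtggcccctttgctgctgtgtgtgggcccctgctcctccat
Hnf4a, downstream start, plus strand, chr2:163546905-163547204: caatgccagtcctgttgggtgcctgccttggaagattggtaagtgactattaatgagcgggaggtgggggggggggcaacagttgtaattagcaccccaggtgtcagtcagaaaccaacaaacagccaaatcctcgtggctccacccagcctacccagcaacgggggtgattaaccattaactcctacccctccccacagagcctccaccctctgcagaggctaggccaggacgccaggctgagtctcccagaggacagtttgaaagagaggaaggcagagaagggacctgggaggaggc
Nr1h4, minus strand, chr10:89506609-89506908: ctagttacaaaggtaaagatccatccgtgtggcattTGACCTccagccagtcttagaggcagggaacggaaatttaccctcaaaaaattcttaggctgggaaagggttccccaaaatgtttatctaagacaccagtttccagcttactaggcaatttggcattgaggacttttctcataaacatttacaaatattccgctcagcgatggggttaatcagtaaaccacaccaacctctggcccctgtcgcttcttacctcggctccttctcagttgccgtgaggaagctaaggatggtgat
Nr0b2, plus strand, chr4:133553126-133553425: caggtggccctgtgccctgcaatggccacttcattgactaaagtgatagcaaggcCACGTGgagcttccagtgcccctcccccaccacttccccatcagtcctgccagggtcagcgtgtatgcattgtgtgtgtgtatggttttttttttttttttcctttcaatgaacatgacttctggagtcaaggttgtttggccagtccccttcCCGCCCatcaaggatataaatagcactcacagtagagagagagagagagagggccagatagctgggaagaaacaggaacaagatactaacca

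The canonical E-box was found in 2 of the 15 windows, 195 bases before the start of Nr0b2 and 193 bases before the downstream start of Thrb, against 7.15% of 32851 promoters of the same length and 9.4% of those of tested genes. The half-site was found in 4 of 15 (Nr1h4, Nr5a2, Rxra and Thrb), against 16.3% of all promoters and 13.1% of those of tested genes, and in Nr1h4 it lies 214 bases before the start. The GC box was found in 7 of 15, against 35.7% of all promoters and 59.3% of those of tested genes. The E'-box (CACGTT) and the D-box (TTANGTAA), other clock elements, were found in 0 of 15, against 4.68% and 2.32% of all promoters (5.12% and 1.62% of those of tested genes). These are matches of letters in short windows and not measured sites. The 2 Hnf4a starts lie 40.3 kb apart. The gene is known to use a proximal promoter in adult hepatocytes and a distal one elsewhere. By position the distal one is the upstream start, whose window holds the only marked Hnf4a match, a GC box. The table has 1 row for the gene, so transcripts from the 2 starts were not separated.

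Receptors differed widely in level. Scaled to the length of the principal transcript in GENCODE M21, and so on a scale of CPM per kb, Hnf4a stood first in WT at 94.3 ± 14.6 (SD, n = 3). Rxra followed at 68.4 ± 2.84 and Nr1h3 at 42.3 ± 5.42. Nr1h4 stood at 40.2 ± 5.26, Nr0b2 at 31.4 ± 9.60 and Nr5a2 at 25.0 ± 2.29 CPM per kb. The lower levels were 8.65 ± 1.63 for Esrra, 8.17 ± 3.97 for Ppara, 4.26 ± 0.68 for Thrb and 2.03 ± 0.31 for Ppard. The WT ranges of neighbours in this order overlapped for Nr1h3 and Nr1h4, for Nr1h4 and Nr0b2, for Nr0b2 and Nr5a2 and for Esrra and Ppara, so these neighbours are not ordered beyond their spread. The place of Nr5a2 depends on the transcript taken: with the union of its coding transcripts' exons it stood at 8.35 CPM per kb.

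**Figure D1:**
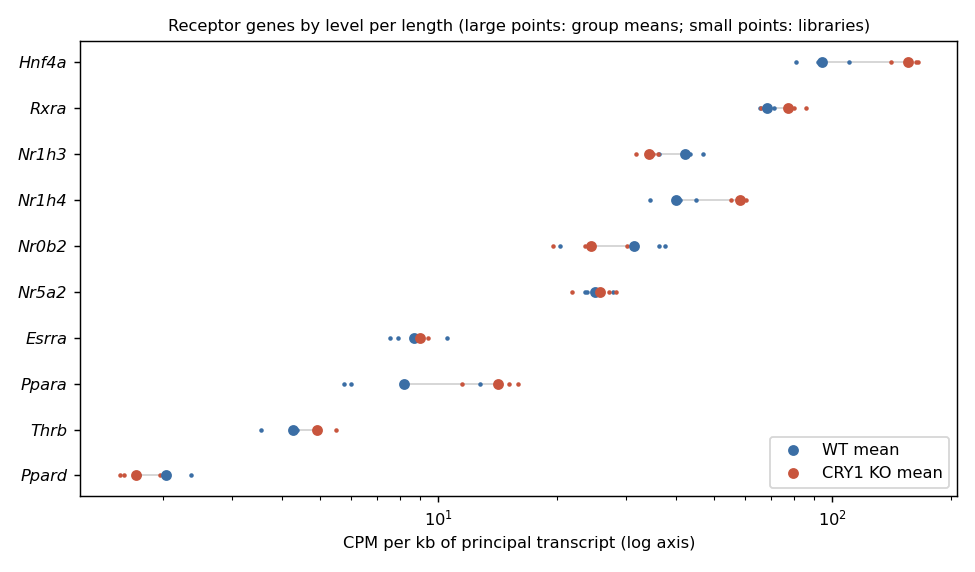
Levels of the 10 receptor genes in CPM per kb of principal transcript on a log axis, as group means (large points) and single libraries (small points). In WT they run from 94.3 for Hnf4a to 2.03 for Ppard.

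Of the 10 receptors, 1 passed the edgeR quasi-likelihood test at a Benjamini-Hochberg adjusted p of 0.05, and it was higher. Over all tested genes 1.70% passed in either direction and 1.06% passed as higher. The groups did not overlap in 3 receptors, higher for Hnf4a and Nr1h4 and lower for Nr1h3, against 27.3% of all tested genes. The same 3 receptors had an unadjusted p under 0.05, against 20.7% of all tested genes. Differences were positive for 7 receptors and negative for 3, with a median log2 difference of 0.11, beside -0.02 over all tested genes. The 3 of 10 receptors without overlap, and the 3 of 10 below the unadjusted threshold, are close to these background shares and are not a result about the receptors as a set.

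**Figure D2:**
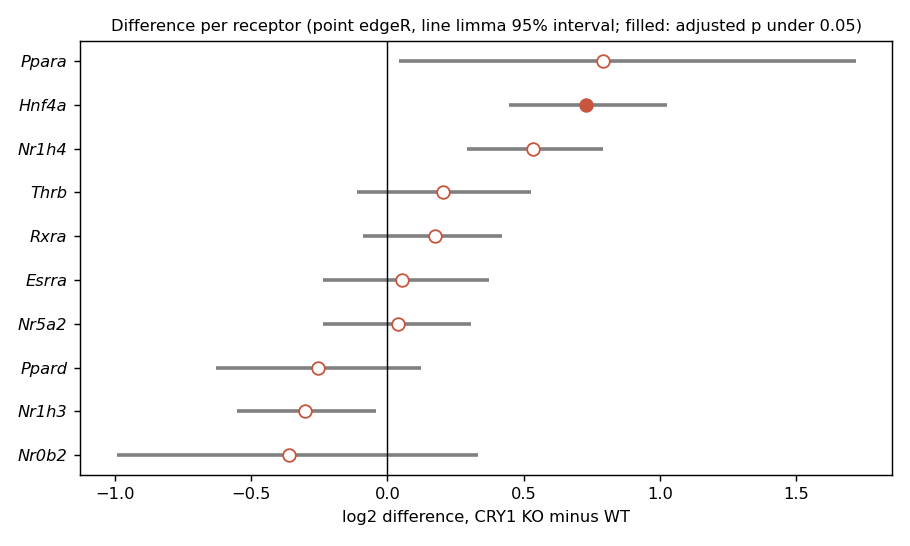
The log2 difference of CRY1 KO minus WT for each receptor from edgeR (points), with the 95% interval from limma (lines), filled where the edgeR adjusted p is under 0.05. Only the point of Hnf4a is filled, and the interval of Ppara, from 0.04 to 1.72, is the widest of the 10.

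Hnf4a encodes the receptor that maintains hepatocyte identity and binds DNA as a homodimer. Its level was 479.1, 399.8 and 353.1 CPM in WT 1, 2 and 3 and 612.9, 717.1 and 710.5 CPM in CRY1 KO 1, 2 and 3. Every CRY1 KO library stood above every WT library. The means were 411 ± 63.7 and 680 ± 58.4 CPM (SD, n = 3 each). Hnf4a was thus 1.66-fold higher (log2 0.73, SE 0.13, edgeR adjusted p = 0.0389), with a 95% limma interval of 1.36 to 2.04-fold. The call was lost without WT 2 (edgeR adjusted p = 0.168) and without CRY1 KO 1, 2 or 3 (0.089, 0.16 and 0.164). In these fits the genes called over all tested genes fell from 235 to 17, 40, 20 and 30. The call held without WT 1 (0.00754) and without WT 3 (0.03). With the title numbers as a block the adjusted p was 0.0843, and Hnf4a passed in 8 of 13 alternatives. Its log2 difference stayed between 0.63 and 0.85 over all libraries left out.

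Hnf4a was compared with all other tested genes by the Pearson correlation of log2 CPM over the 6 libraries, as a description. The most similar were Zmynd19 (r = 0.998), Desi1 (r = 0.998) and Ncapd2 (r = 0.997). The group difference is part of this likeness, and with so few libraries many genes reach high values. Zmynd19 had a log2 difference of 0.51 (edgeR adjusted p = 0.0994).

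In a list of 23 genes known to depend on HNF4A, 0 passed the edgeR test, beside 1.70% of all tested genes. DESeq2 called 7, beside 1284 of 13816, and 7 had an unadjusted edgeR p under 0.05, beside 20.7%. In the list 15 differences were positive and 8 negative, and the median was 0.20. Groups did not overlap in 9 of the 23, 8 higher and 1 lower, beside 27.3% of all tested genes (2014 higher and 1753 lower of 13816). Smallest p-values belonged to Nr1i3, which encodes the xenobiotic receptor CAR (log2 1.33, SE 0.28, adjusted p = 0.0716), and to Otc, a urea cycle enzyme gene (0.36, SE 0.09, adjusted p = 0.0882). Nr1i3 was measured at 71.6, 99.6 and 154.2 CPM in WT and at 273.0, 237.0 and 310.5 CPM in CRY1 KO. The list's median varied from 0.09 without CRY1 KO 2 to 0.32 without WT 3.

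Nr1h4 encodes FXR, the bile acid sensor. Its level was 69.5, 82.7 and 90.5 CPM in WT and 118.5, 121.8 and 111.1 CPM in CRY1 KO, so that the groups did not overlap. The means were 80.9 ± 10.6 and 117 ± 5.48 CPM (SD, n = 3 each). Their ratio was 1.45-fold (log2 0.53, SE 0.11), with a 95% limma interval of 1.23 to 1.73-fold. The edgeR adjusted p was 0.0515, just short of the threshold. It was 0.0475 without WT 1, 0.0231 without WT 3 and 0.049 when major urinary protein and mitochondrial genes were left out before scaling, and DESeq2 gave 0.00113. It was 0.181 when WT 2 was left out, 0.143, 0.195 and 0.166 when CRY1 KO 1, 2 or 3 was, 0.138 with scaling by library total and 0.0637 with limma-voom, so that Nr1h4 passed in 4 of 13 alternatives.

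Nr0b2 encodes SHP, a receptor that lacks a DNA-binding domain and represses other receptors, and it is a known target of FXR. Its level was 23.0, 41.0 and 42.6 CPM in WT and 22.2, 34.1 and 26.6 CPM in CRY1 KO. The groups overlapped, with WT 1 near the lowest CRY1 KO library. The log2 difference was -0.36 (SE 0.27, edgeR adjusted p = 0.481), and its 95% limma interval ran from 0.503 to 1.26-fold. The Nr0b2 difference was -0.60 without WT 1 (adjusted p = 0.0912), -0.21 without WT 3 and -0.22 without CRY1 KO 1. Within each library the CPM of Nr1h4 was 3.02, 2.02 and 2.13 times that of Nr0b2 in WT and 5.34, 3.57 and 4.17 times in CRY1 KO. This ratio, without length scaling, did not overlap between groups and was not tested. How often ratios of other gene pairs separate the groups was not examined.

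Nr5a2 encodes LRH-1, which activates bile acid synthesis genes and is held in check by SHP. It was measured at 43.9, 44.3 and 51.5 CPM in WT and at 52.5, 40.6 and 50.4 CPM in CRY1 KO, with full overlap of the groups. Its log2 difference was 0.04 (SE 0.12, edgeR adjusted p = 0.883), with a 95% limma interval of 0.848 to 1.24-fold, so a change of 1.5-fold lay outside the interval in both directions.

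Of 22 genes of bile acid synthesis and transport under FXR, SHP and LRH-1, Nr0b2 included, 0 passed the edgeR test, beside 1.70% of all tested genes. DESeq2 called 4, beside 1284 of 13816, and 4 had an unadjusted edgeR p under 0.05, beside 20.7%. Groups did not overlap in 4 genes as higher and 2 as lower, beside 27.3% of all tested genes. In the list 14 differences were positive and 8 negative. The median was 0.05, with a range of 0.03 to 0.09 over the libraries left out. The list joins genes of receptors that act against each other, such as LRH-1 and SHP, so its median does not measure their action. The smallest p-values were those of Abcb4, the phospholipid exporter of bile (log2 0.47, SE 0.11, adjusted p = 0.0644), and Fgfr4, the hepatic receptor for the intestinal hormone FGF15 (-0.41, SE 0.11, adjusted p = 0.0831). Cyp8b1, the sterol 12-hydroxylase, was measured at 273.1, 90.3 and 175.6 CPM in WT and at 551.4, 423.2 and 329.2 CPM in CRY1 KO, without overlap (log2 1.27, SE 0.44, adjusted p = 0.196). Cyp7a1, the rate-limiting enzyme of the classical pathway, was measured at 53.5, 38.3 and 22.6 CPM in WT and at 83.2, 65.9 and 52.1 CPM in CRY1 KO (log2 0.82, SE 0.34, adjusted p = 0.255). Its groups overlapped through WT 1 and CRY1 KO 3. The other Cyp genes of the list differed less, Cyp7b1 by 0.33 (SE 0.39, edgeR adjusted p = 0.679) and Cyp27a1 by 0.06 (SE 0.10, edgeR adjusted p = 0.751), both with overlap.

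Nr1h3 encodes LXRα, the oxysterol sensor. Its level was 85.1, 91.9 and 71.1 CPM in WT and 70.4, 68.7 and 61.9 CPM in CRY1 KO. The groups did not overlap, but WT 3 and CRY1 KO 1 stood close together. The log2 difference was -0.30 (SE 0.11, edgeR adjusted p = 0.179), or 0.811-fold with a 95% limma interval of 0.683 to 0.97. Macrophages are also known to express Nr1h3, and Kupffer markers were highest in WT 1 and WT 2, the libraries with the highest Nr1h3. Between them, WT 2 had the higher Nr1h3 and WT 1 the higher marker sum. Without WT 1 the Nr1h3 difference was -0.28 (edgeR adjusted p = 0.25), without WT 2 it was -0.22 (0.448), without WT 3 it was -0.40 and passed (0.0477), and the part of these markers in it was not tested.

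Set against each other within a library, Nr1h4 stood at 0.817, 0.9 and 1.27 times the CPM of Nr1h3 in WT and at 1.68, 1.77 and 1.79 times in CRY1 KO, again without length scaling. The ratio did not overlap between groups, which had to follow from Nr1h4 being higher and Nr1h3 lower without overlap. It adds nothing to the values of the single genes and was not tested. The paralogue Nr1h2, which encodes LXRβ, had a log2 difference of -0.07 (SE 0.09, adjusted p = 0.716).

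Of 16 LXR target genes, 1 passed the edgeR test, beside 1.70% of all tested genes. DESeq2 called 2, beside 1284 of 13816. An unadjusted edgeR p under 0.05 was reached by 1 gene as higher and 3 as lower, beside 20.7%. Groups did not overlap in 1 gene as higher and 2 as lower, beside 27.3% of all tested genes. In the list 7 differences were positive and 9 negative. The median was -0.04, a sign that was not stable: it was 0.006 with limma-voom and 0.025 without WT 3. The gene that passed was Scd1, the stearoyl-CoA desaturase gene, measured at 3824, 2915 and 2784 CPM in WT and at 8442, 6223 and 7933 CPM in CRY1 KO (log2 1.25, SE 0.17, adjusted p = 0.019). Its adjusted p was 0.111 without WT 2, 0.0767 without CRY1 KO 1 and 0.0985 without CRY1 KO 3. Scd1 is also known to respond to other lipogenic factors. Abca1, the cholesterol exporter of the plasma membrane, was measured at 108.0, 128.0 and 154.5 CPM in WT and at 103.2, 106.5 and 101.5 CPM in CRY1 KO (-0.33, SE 0.13, adjusted p = 0.2).

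**Figure D3:**
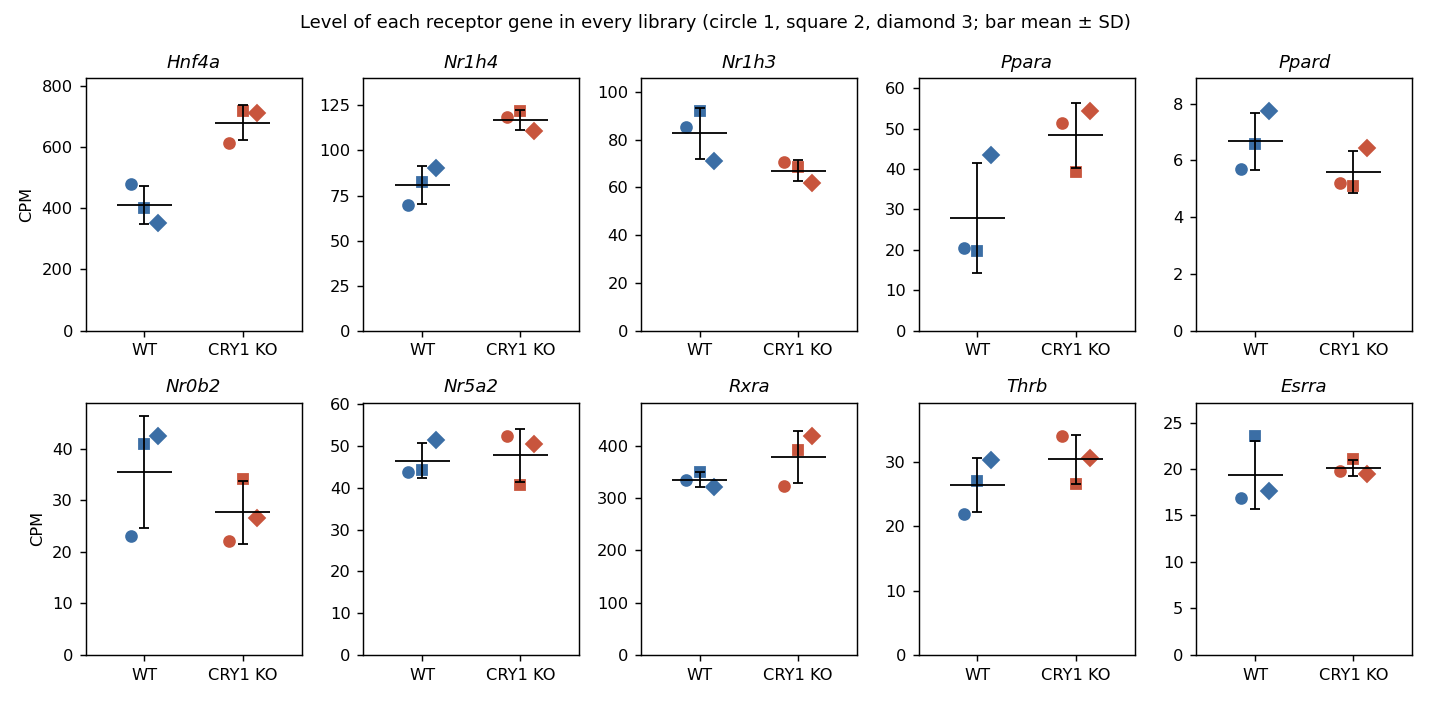
CPM of the 10 receptor genes in each of the 3 WT and 3 CRY1 KO libraries, with group means and SD. The groups are apart for Hnf4a, Nr1h4 and Nr1h3, and WT 3 (diamond) stands within the CRY1 KO range for Ppara.

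Ppara encodes the fatty acid sensor that drives hepatic fatty acid oxidation in fasting, and its RNA is known to vary over the day. Its level was 20.5, 19.6 and 43.5 CPM in WT and 51.5, 39.2 and 54.3 CPM in CRY1 KO. WT 3 stood at 2.22 times the lowest WT library and within the range of CRY1 KO, the widest WT range among the 10 receptors. The log2 difference was 0.79 (SE 0.35, edgeR adjusted p = 0.271), with a 95% limma interval of 1.03 to 3.29-fold. Without WT 3 it was 1.27 (edgeR adjusted p = 0.0108), and without WT 1 or WT 2 it was 0.61 and 0.59.

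Ppard encodes the related receptor found in most cell types. It was measured at 5.70, 6.57 and 7.73 CPM in WT and at 5.22, 5.09 and 6.43 CPM in CRY1 KO, with overlap (log2 -0.26, SE 0.17, edgeR adjusted p = 0.411; 95% limma interval 0.647 to 1.09-fold). Without WT 3 the Ppard difference was -0.14. WT 1, the library with the most Kupffer marker RNA, had the lowest Ppard of the WT libraries. The part of these markers in the Ppard difference was not tested. The CPM of Ppara was 3.60, 2.99 and 5.64 times that of Ppard in WT and 9.86, 7.71 and 8.43 times in CRY1 KO, without length scaling.

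Of 23 PPAR target genes, 1 passed the edgeR test, beside 1.70% of all tested genes. DESeq2 called 5, beside 1284 of 13816 over all tested genes. In 19 of these targets the difference was positive and in 4 negative, and the median was 0.21. Groups did not overlap in 10 of them, 9 higher and 1 lower, beside 27.3% of all tested genes. The gene that passed was Cpt1a, whose product admits fatty acids to mitochondria, at 219.9, 196.4 and 246.3 CPM in WT and 333.1, 336.7 and 412.8 CPM in CRY1 KO (log2 0.71, SE 0.12, adjusted p = 0.0365). The Cpt1a call was lost without WT 2 (adjusted p = 0.156) and without CRY1 KO 1, 2 or 3 (0.089, 0.127 and 0.138), and with scaling by library total (0.0848), where 0 PPAR targets passed.

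Rxra encodes the common heterodimer partner of FXR, LXR, the PPARs and the thyroid hormone receptors. Its level was 335.4, 349.3 and 321.4 CPM in WT and 323.4, 391.4 and 419.5 CPM in CRY1 KO, with CRY1 KO 1 inside the WT range. The log2 difference was 0.17 (SE 0.11, edgeR adjusted p = 0.408), with a 95% limma interval of 0.941 to 1.34-fold, and was 0.28 without CRY1 KO 1 and 0.10 without CRY1 KO 3. Among its paralogues, Rxrb had a difference of 0.19 (SE 0.12, adjusted p = 0.386) and the scarce Rxrg one of -0.74 (SE 0.23, adjusted p = 0.124). The CPM of Rxra was 11.1, 12.3 and 14.2 times that of Rxrb in WT and 10.8, 12.7 and 13.1 times in CRY1 KO. This ratio, without length scaling, overlapped between groups.

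Thrb is known to encode the main thyroid hormone receptor of hepatocytes. It was measured at 21.95, 27.06 and 30.28 CPM in WT and at 34.1, 26.5 and 30.6 CPM in CRY1 KO, with overlap (log2 0.20, SE 0.14, edgeR adjusted p = 0.44; 95% limma interval 0.926 to 1.44-fold). The Thrb difference was 0.09 without WT 1, 0.31 without WT 3 and 0.12 without CRY1 KO 1. Its paralogue Thra had a difference of -0.30 (SE 0.16, adjusted p = 0.315). The CPM of Thrb was between 1.21 and 1.35 times that of Thra in WT and between 1.70 and 1.89 times in CRY1 KO, without length scaling. Per kb of principal transcript the order was reversed. Thra stood at 9.20 and Thrb at 4.26 CPM per kb in WT, and at 7.48 and 4.91 in CRY1 KO. Of 14 thyroid hormone target genes, 2 passed the edgeR test, Cpt1a and Me1, beside 1.70% of all tested genes, and both rose. The median over the list was 0.23 (0.08 without WT 2). Me1, the malic enzyme gene, was measured at 131.4, 95.4 and 113.6 CPM in WT and at 189.1, 161.3 and 191.4 CPM in CRY1 KO (0.67, SE 0.13, adjusted p = 0.047). The Me1 call was lost without WT 2 (adjusted p = 0.168), without CRY1 KO 1, 2 or 3 (0.133, 0.137 and 0.185), with limma-voom (0.058) and with scaling by library total (0.0729), where 0 genes of this list passed. The classical hepatic target Dio1, a deiodinase gene, had a difference of -0.34 (SE 0.24, adjusted p = 0.45).

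Esrra encodes an orphan receptor that drives mitochondrial genes together with PGC-1 coactivators. Its level was 16.9, 23.6 and 17.7 CPM in WT and 19.8, 21.1 and 19.4 CPM in CRY1 KO. All CRY1 KO values lay inside the WT range. The log2 difference was 0.05 (SE 0.14, edgeR adjusted p = 0.859), with a 95% limma interval of 0.848 to 1.29-fold. In GENCODE M21, 73 exon bases of Esrra overlap Trmt112 on the opposite strand, and whether the authors' counting used strand is not given in the sources used here.

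Of 18 genes under ERRα, 0 passed the edgeR test, beside 1.70% of all tested genes. DESeq2 called 4, beside 1284 of 13816, and 4 had an unadjusted edgeR p under 0.05, beside 20.7%. In the list 15 differences were positive and 3 negative, and the median was 0.12. Groups did not overlap in 8, all higher, beside 27.3% of all tested genes. The smallest p-values were those of Sdha, a succinate dehydrogenase subunit gene, at 358.8, 355.1 and 352.5 CPM in WT and 447.5, 450.3 and 446.1 CPM in CRY1 KO (log2 0.33, SE 0.08, adjusted p = 0.0713), and of Ogdh, another citric acid cycle gene (0.31, SE 0.08, adjusted p = 0.0923). The libraries of each group lay very close together for Sdha.

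Coactivators and corepressors of nuclear receptors numbered 17, of which 0 passed the edgeR test, beside 1.70% of all tested genes. DESeq2 called 1, beside 1284 of 13816, and 4 had an unadjusted edgeR p under 0.05, beside 20.7%. Positive differences were found in 13 (median 0.10, but 0.03 without WT 2 and 0.20 without WT 3). Ppargc1b, a PGC-1 coactivator gene, had the smallest p, with 1.48, 1.68 and 2.98 CPM in WT and 4.30, 3.05 and 4.34 CPM in CRY1 KO (log2 0.93, SE 0.30, adjusted p = 0.135). Tbl1xr1, a subunit gene of corepressor complexes, followed (0.32, SE 0.11, adjusted p = 0.157). Of the other 31 tested nuclear receptor genes, 2 passed the edgeR test, beside 1.70% of all tested genes, and both rose. Among them was Nr1d2 (log2 0.86, SE 0.11, adjusted p = 0.0165), which encodes the clock repressor REV-ERBβ. Nr1d2 was measured at 58.1, 48.0 and 61.2 CPM in WT and at 95.2, 104.9 and 103.5 CPM in CRY1 KO, without overlap. The Nr1d2 call was lost when WT 2 (adjusted p = 0.0613), CRY1 KO 2 (0.0842) or CRY1 KO 3 (0.0877) was left out. The median over these 31 genes was 0.13, but 0.05 without WT 1 or WT 2 and 0.06 without CRY1 KO 1. Over the 8 companion lists together, without the 10 receptors, 5 of 144 genes passed, beside 1.70% of all tested genes. Their groups did not overlap in 31.9%, beside 27.3% of all tested genes. Of the companion genes apart, 37 were higher and 9 lower, beside 2014 higher and 1753 lower over all tested genes. This split was not tested.

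**Figure D4:**
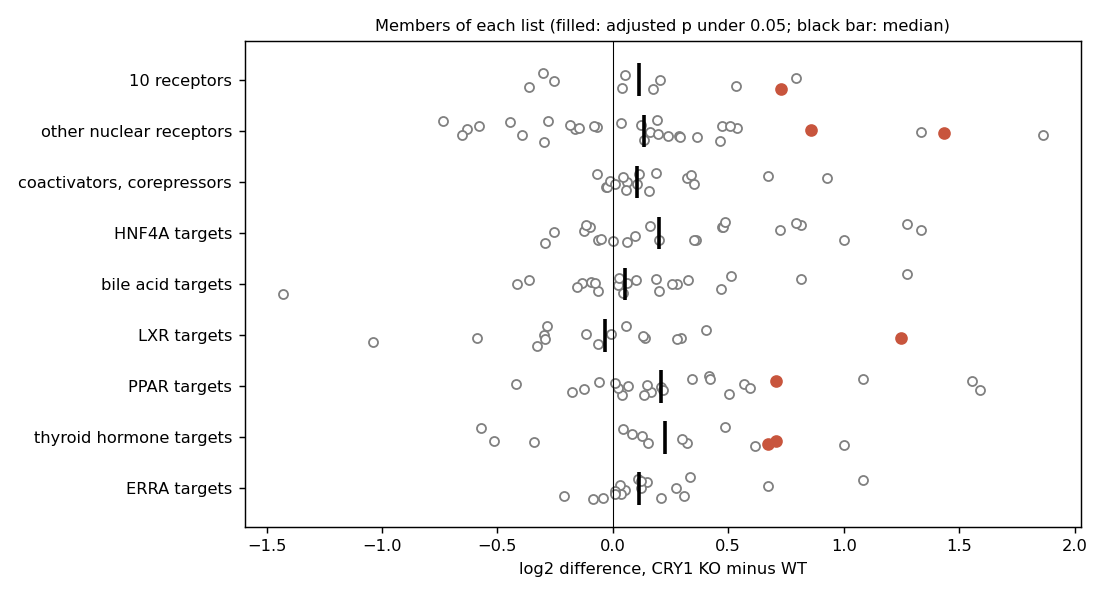
The log2 difference of CRY1 KO minus WT for each tested gene of the receptor list and the 8 companion lists (points, filled where the edgeR adjusted p is under 0.05; vertical position within a list is arbitrary), with each list's median as a black bar. Medians run from -0.04 for LXR targets (0.03 without WT 3) to 0.23 for thyroid hormone targets (0.08 without WT 2).

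Across the 6 libraries the receptors did not vary as 1 block. Of 45 pairs, 24 had a positive and 21 a negative correlation of log2 CPM, given here as a description over libraries that share their group, depth and scaling. The strongest positive one joined Nr1h4 and Ppara (Pearson r = 0.82, Spearman rho = 0.54), and the strongest negative one Ppara and Nr1h3 (r = -0.95, rho = -0.83). WT 1 held the lowest value of 3 receptors, Nr1h4, Thrb and Esrra, and the highest of none.

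**Figure D5:**
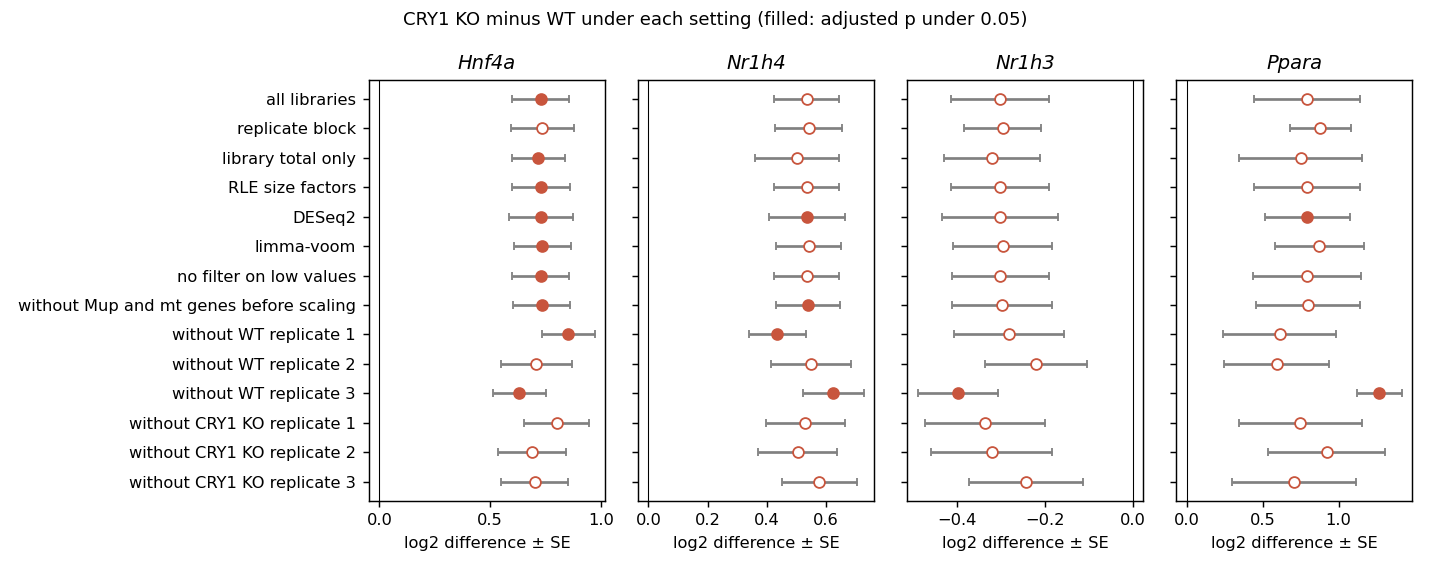
The log2 difference of CRY1 KO minus WT with its SE for Hnf4a, Nr1h4, Nr1h3 and Ppara with all libraries and under each of 13 other settings, filled where the adjusted p is under 0.05. All values of a gene lie on 1 side of 0, while the filled points change with the setting, and Ppara reaches its highest value, 1.27, without WT replicate 3.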

How the data were processed

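The deposited table holds whole numbers per gene and library, taken here as estimated counts because more genes stood at 3 than at 1, 2 or 4 in every library. The submitters' processing notes name Trim Galore 0.6.7, HISAT2 2.2.1, StringTie 2.1.7, limma 3.42.2 and build GRCm39 (mm39), with no order or settings. The annotation is not given in the sources used here. A filter on low values (filterByExpr of edgeR 4.0.16, at least 10 counts per library in a group's worth of libraries and 15 in total) and TMM scaling came first, and the groups were then compared over all 13816 tested genes with the quasi-likelihood test and Benjamini-Hochberg adjustment. SE is the log2 difference over the square root of the F statistic. Intervals come from limma 3.58.1 on log2 CPM (prior count 2), and DESeq2 1.42.0 was an alternative. The procedure was tested on simulated counts with known changes in some genes. It recovered 16.4% of changes of 1.5-fold, 79.1% of 2-fold and 100% of 4-fold, and 12 of its 142 calls were genes given no change. Most changes of 1.5-fold were thus missed, so a gene that did not pass is not shown to be unchanged.

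The receptors, lists and tests were chosen with earlier results of these data known. Named are all 10 receptors, list members that passed, the 2 smallest p-values of each list, and the 3 genes most like Hnf4a. Paralogues, Cyp7a1, Cyp8b1, Cyp7b1, Cyp27a1, Dio1, Alb and Jchain were named outside this rule. Lists came from textbook knowledge and share members. A pair of genes that the rule picks is not reported here.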

Additional observations from a re-analysis of the deposited data

How the results depend on the processing

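All 10 receptors kept their sign under the 7 alternative fits with all libraries. When a library was left out, Esrra ranged from -0.037 (without WT 1; -0.01 without WT 3) to 0.217, and Nr5a2 from -0.03 (without CRY1 KO 1; -0.002 without WT 1) to 0.144. The number of receptors called was 1 in the reported fit, 3 with DESeq2 (Hnf4a, Nr1h4 and Ppara), 2 without major urinary protein and mitochondrial genes, 0 with a replicate block, and from 0 to 4 over the libraries left out. With the replicate block the Hnf4a difference was 0.74 (edgeR adjusted p = 0.0843). Deviations of libraries with the same number in their titles correlated at -0.066, -0.014 and 0.07. With 3 libraries per group these values cannot decide whether the numbers mark a shared origin. Genes called in all numbered 235 in the reported fit, 94 with the block, 113 scaled by library total only, 1284 with DESeq2, and from 17 to 844 over the libraries left out. Companion genes called numbered 5 in the reported fit and with the block, 3 by library total, 26 with DESeq2, and from 0 to 15 over the libraries left out. Fits with a library left out also have fewer libraries, and beyond that the cause was not tested. Ppard, at 414 to 741 estimated counts per library, had the lowest depth of the receptors, and a unit of the table is not 1 fragment.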
